A study of Solanum lycopersicum with 18 samples.

Results

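The genes described here are 6 of the 23348 genes in the deposited table: the GABA transaminase genes GABA-TP1, GABA-TP2 and GABA-TP3, the glutamate decarboxylase genes GAD2 and GAD3, and SSADH, for succinic semialdehyde dehydrogenase. GABA-TP3 was picked because its level differed between the lines at 0 h in these same libraries. The other 5 were picked by gene name, with earlier results of these data known. For that reason every level of GABA-TP3 at 0 h, and every difference at or from 0 h, is given as a description with no test.

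4-Aminobutyrate (GABA) is made in the cytosol when glutamate decarboxylase removes a carboxyl group from glutamate. GABA transaminase then moves its amino group to a keto acid and leaves succinic semialdehyde, which succinic semialdehyde dehydrogenase oxidises to succinate for the citrate cycle. This route, the GABA shunt, bypasses part of the citrate cycle, and plants often accumulate GABA under cold, heat, salt or low oxygen. In tomato the transaminase isoforms act in different compartments: GABA-TP1 is mitochondrial, GABA-TP2 cytosolic and GABA-TP3 plastidial.

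The libraries are mRNA sequencing libraries from leaves of 2 tomato lines, Micro-TOM-EX (EX) and Micro-TOM (MT), the dwarf tomato cultivar, sampled at 0, 4 and 12 h. Each line and time has 3 libraries, 18 in all. The labels do not say what the suffix EX stands for, how the line was made or whether it is 1 clone. The growth protocol names a cold treatment of 0, 4 or 12 h for both lines in the greenhouse, but the stress label reads cold in every EX library, the 0 h ones included, and control in every MT library, so the treatment of the MT plants at 4 and 12 h is not settled by the labels. Nothing states that the replicates came from separate plants, and p-values therefore measure the spread between libraries, which may be technical.

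Values are FPKM, fragment counts scaled by transcript length and library size. The steps between low values put each library at about 16500000 to 18600000 fragments. On the second principal component of all tested genes (18.4% of the variance), library 1 of MT at 0 h (61.9) and library 1 at 4 h in the same line (52.6) stood apart from the other libraries, which lay between -40.7 and 14.3. Results that use these libraries are also given without both of them where a call or a direction changes. All 11 green leaf genes of a marker list were above 1 FPKM, and their summed level was 47117 to 79365 FPKM in EX at 0 h, against 30700 to 59356 in MT at 0 h. At 4 h the sum was 61114 to 70230 FPKM in EX, against 33958 to 52352 in MT, with no overlap, and at 12 h 49245 to 57418 in EX, against 52173 to 59555 in MT. Of 7 genes of a wounded leaf list, 5 were above 1 FPKM, and their sum at 0 h was 28.5 to 48.1 FPKM in EX, against 11.1 to 24.1 in MT, again with no overlap. The list member LOC101259357 went the other way at 0 h, with a mean of 2.74 FPKM in EX, against 5.69 in MT. At 4 h the sums overlapped, with 26.2 to 62.5 FPKM in EX, against 13.2 to 45.8 in MT. They overlapped at 12 h too, with 34.9 to 67.4 FPKM in EX, against 29.6 to 79.8 in MT. The part of leaf composition, wounding and depth in the values below was not tested. In bulk leaf, fewer cells of a type and less RNA per cell cannot be told apart.

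GABA-TP3 lies on chromosome 12 at 921679 to 927385 on the minus strand and has 3 transcripts in the deposited table. At 0 h it measured 3.89, 2.92 and 4.78 FPKM in the EX libraries, against 106, 30.8 and 74.3 FPKM in the MT libraries. Every MT library was above every EX library, and the 3 MT values spread widely among themselves. The group means were 3.86 ± 0.930 FPKM in EX and 70.4 ± 37.9 FPKM in MT (SD, n = 3 each), an 18.2-fold lower mean in EX. On the log2(FPKM + 1) scale the difference was -3.73, and -3.35 without both outlying MT libraries.

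In EX, GABA-TP3 stayed low at every time, with 1.59, 2.11 and 1.54 FPKM at 4 h and 2.07, 2.29 and 3.49 FPKM at 12 h. In MT it measured 2.87, 2.12 and 2.28 FPKM at 4 h and 13.3, 7.83 and 8.50 FPKM at 12 h. The MT values thus traced a high level at 0 h, a low one at 4 h and an intermediate one at 12 h, with no overlap between any of the 3 times. The 4 h mean in MT, 2.42 ± 0.395 FPKM, was 29.1-fold below the 0 h mean, and in EX the 4 h mean, 1.75 ± 0.316 FPKM, was 2.21-fold below it. The change from 0 h, on the log2(FPKM + 1) scale, was -0.81 at 4 h and -0.43 at 12 h in EX, against -4.22 at 4 h and -2.58 at 12 h in MT. These differences share the 0 h libraries that chose the gene and carry no test.

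At 4 and 12 h GABA-TP3 was tested, because its choice rested on the 0 h libraries. The fit estimates the spread of a gene over all 18 libraries, however. The 0 h libraries that chose the gene therefore still entered the SE of these tests, which are not free of that choice. In MT GABA-TP3 rose to 9.86 ± 2.95 FPKM at 12 h, against 2.42 ± 0.395 FPKM at 4 h (SD, n = 3 each), a 4.07-fold higher mean. The log2 difference was 1.64 (SE 0.33, 95% interval 0.93 to 2.35, limma with Benjamini-Hochberg adjusted p = 0.0363). All 3 libraries at 12 h were above all 3 at 4 h. The call was lost in each of the 6 fits that left a library out (limma adjusted p = 0.0601 to 0.211) and in a fit on these 6 libraries alone (0.106). In EX the 12 h mean was 2.62 ± 0.764 FPKM, against 1.75 ± 0.316 FPKM at 4 h, and the log2 difference of 0.38 did not pass (95% interval -0.32 to 1.09, limma adjusted p = 0.871). The difference between the lines in this step, EX minus MT, was -1.26 (SE 0.47, limma adjusted p = 0.539), so the step was not shown to differ between them. That test was added after the values had been seen.

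Between the lines, GABA-TP3 was lower in EX in every library at both later times, with groups that did not overlap, but neither difference passed the test. At 4 h the gap was narrow, with 2.11 FPKM in the highest EX library and 2.12 FPKM in the lowest MT library, and the log2 difference was -0.32 (95% interval -1.02 to 0.39, limma adjusted p = 0.681). At 12 h the EX mean was 3.77-fold below the MT mean, with a log2 difference of -1.57 (SE 0.33, 95% interval -2.28 to -0.87, limma adjusted p = 0.122). Over the alternatives tried, leaving out a library aside, that adjusted p ranged from 0.0619 to 0.176.

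In order of mean level, GABA-TP3 ran from MT at 0 h through MT at 12 h to EX at 0 h, each group clear of the next. EX at 0 h overlapped EX at 12 h, and EX at 12 h overlapped MT at 4 h. EX at 4 h was last and did not overlap MT at 4 h. Over all 18 libraries its spread on the log2 scale ranked 55 of 17870 tested genes, while its mean of 15.2 FPKM ranked 7721. Both ranks include the 0 h values that chose the gene. Its lowest level, 1.54 FPKM, stood for an estimated 53 fragments and its highest, 106 FPKM, for about 3569. The part of counting error in the spread between libraries was not tested.

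**Figure D1:**
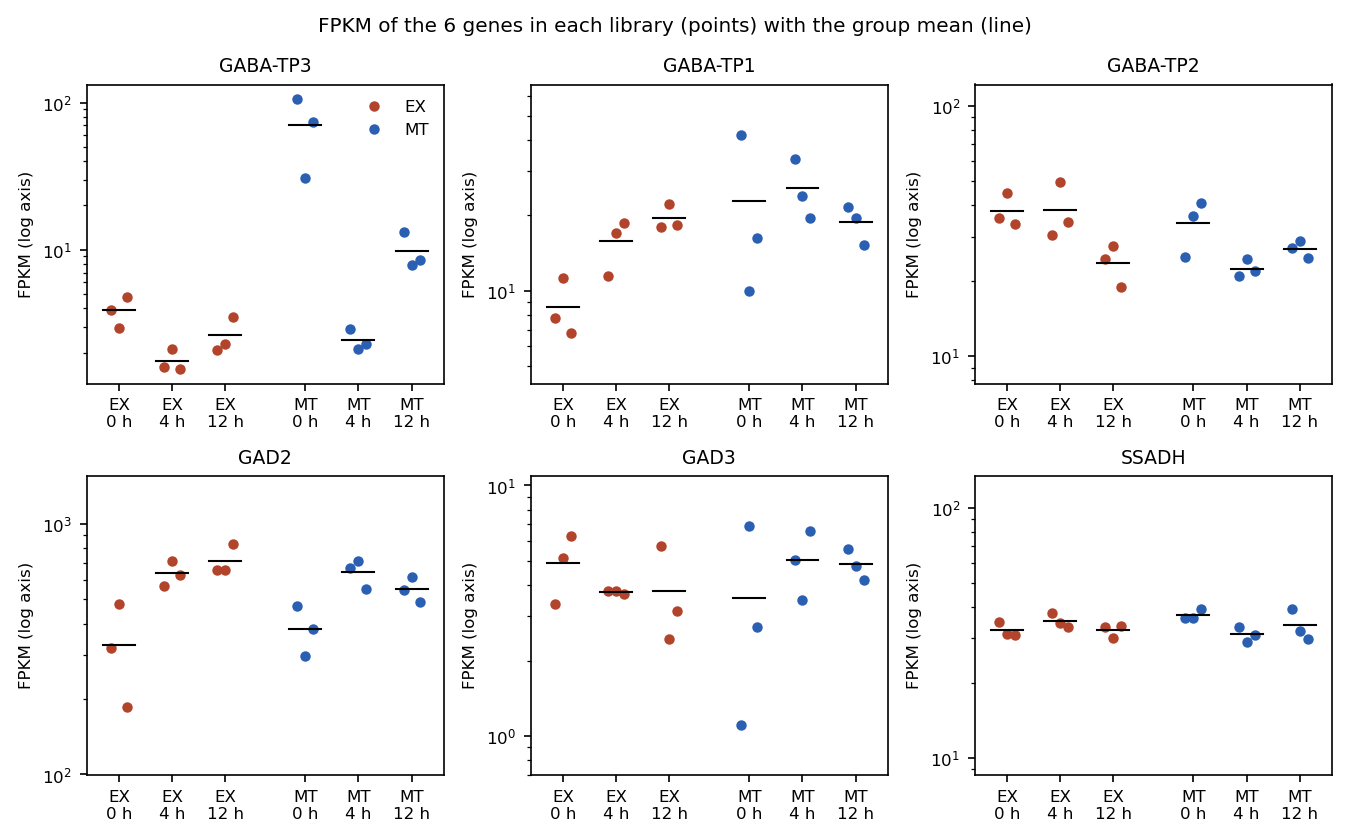
FPKM of the 6 genes in each library on log axes, with EX groups in red left of MT groups in blue, times in order within a line and a bar at each group mean (n = 3). GABA-TP3 sits at 30.8 to 106 FPKM in MT at 0 h and at or below 4.78 FPKM in every EX library, while SSADH stays between 29.1 and 39.3 FPKM throughout.

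GABA-TP1 (gene ID 543873; chromosome 7, 56989952 to 56996766, plus strand), the mitochondrial isoform, rose in EX by 12 h. It measured 7.80, 11.2 and 6.75 FPKM in EX at 0 h, then 11.4, 17.0 and 18.7 FPKM at 4 h and 18.02, 22.3 and 18.3 FPKM at 12 h. Both later times lay wholly above 0 h. At 12 h the EX mean of 19.5 ± 2.37 FPKM was 2.27-fold above the 0 h mean of 8.59 ± 2.33 FPKM (SD, n = 3 each), with a log2 difference of 1.12 (SE 0.37, limma adjusted p = 0.0494). That call lies at the threshold and was lost without any 1 of the 6 libraries but library 2 of EX at 0 h (limma adjusted p = 0.0898 to 0.164), and with the replicate number as a block (0.0548). At 4 h the log2 difference from 0 h was 0.80 (SE 0.37, limma adjusted p = 0.198), and 0.0313 was the adjusted p without both outlying MT libraries.

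In MT, GABA-TP1 measured 42.0, 10.01 and 16.3 FPKM at 0 h, 33.7, 24.0 and 19.5 FPKM at 4 h and 21.6, 19.6 and 15.2 FPKM at 12 h. The times overlapped throughout, and the SD at 0 h, 17.0 FPKM on a mean of 22.8, was wider than any step between times. Library 1 was the highest of the 3 at every time in MT. At 0 h the means were 8.59 ± 2.33 FPKM in EX and 22.8 ± 17.0 FPKM in MT, a log2 difference of -1.10 that did not pass (95% interval -1.88 to -0.32, limma adjusted p = 0.0992). Leaving out library 2 of MT at 0 h made it -1.54 (limma adjusted p = 0.00901, in a fit that called 19.0% of all genes in this comparison), and leaving out library 1 of MT at 0 h made it -0.55. At 4 h the lines did not overlap, with EX at 11.4 to 18.7 FPKM and MT at 19.5 to 33.7 FPKM, yet the log2 difference of -0.67 did not pass (95% interval -1.45 to 0.12, limma adjusted p = 0.418). At 12 h the means were 19.5 ± 2.37 FPKM in EX and 18.8 ± 3.27 FPKM in MT, and the difference of 0.06 had a 95% interval of -0.72 to 0.85. The change over 12 h differed between the lines by 1.16, EX minus MT (95% interval 0.05 to 2.27, limma adjusted p = 0.284).

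GABA-TP2 (gene ID 543874; chromosome 12, 956721 to 962712, plus strand), the cytosolic isoform, also carries the name GAME12 in the reference table. GAME12 is known in tomato as a transaminase of steroidal glycoalkaloid synthesis. In EX it measured 35.6, 44.7 and 33.7 FPKM at 0 h, 30.5, 49.8 and 34.2 FPKM at 4 h and 24.3, 27.5 and 19.0 FPKM at 12 h. The 12 h values lay below every value of the 2 earlier times. GABA-TP2 fell to 23.6 ± 4.31 FPKM at 12 h, against 38.0 ± 5.89 FPKM at 0 h in EX (SD, n = 3 each), with a log2 difference of -0.67 (SE 0.20, 95% interval -1.10 to -0.24, limma adjusted p = 0.0328). It was lost without any 1 of the 6 libraries but library 2 of EX at 12 h (limma adjusted p = 0.0502 to 0.152).

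In MT, GABA-TP2 measured 24.8, 36.3 and 40.7 FPKM at 0 h, 20.8, 24.3 and 21.9 FPKM at 4 h and 26.9, 28.8 and 24.7 FPKM at 12 h. The 4 h libraries lay below all others of the line. The log2 difference of 4 h from 0 h was -0.56 (SE 0.20, limma adjusted p = 0.0801), and with the replicate number as a block the adjusted p was 0.0392. Set against MT at 4 h, EX was higher in every library, 38.1 ± 10.2 FPKM in EX and 22.3 ± 1.80 FPKM in MT, a log2 difference of 0.72 (95% interval 0.29 to 1.15) that did not pass after adjustment (limma adjusted p = 0.168). At 0 h the lines overlapped, with a difference of 0.18 (95% interval -0.25 to 0.61) that became -0.03 without both outlying MT libraries. At 12 h they overlapped too, with a difference of -0.19 (95% interval -0.62 to 0.24).

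Because FPKM is per kilobase, the transaminase genes can be set side by side within a library, although the sources used here do not give how fragments shared between similar genes were assigned. In EX at 0 h, GABA-TP2 held 75.3 ± 0.735% of the summed transaminase FPKM, GABA-TP1 16.8 ± 2.08% and GABA-TP3 7.92 ± 2.81%. In MT at 0 h, GABA-TP3 held 52.6 ± 11.3%, GABA-TP2 30.8 ± 16.4% and GABA-TP1 16.6 ± 6.70%. GABA-TP3 was thus the most abundant of the 3 in libraries 1 and 3 of MT at 0 h, while in library 2 GABA-TP2 led with 47.1% against 39.9%.

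By 4 h the share of GABA-TP3 was 3.18 ± 0.429% in EX and 4.81 ± 0.531% in MT. GABA-TP1 held 28.5 ± 5.20% in EX at 4 h and 50.3 ± 7.42% in MT. At 12 h GABA-TP3 held 5.87 ± 2.33% in EX and 17.7 ± 3.77% in MT. GABA-TP1 and GABA-TP2 at 12 h were at 42.8 ± 2.19% and 51.4 ± 4.32% in EX, against 33.7 ± 2.03% and 48.6 ± 4.37% in MT. The summed transaminase level in EX was 50.5 ± 7.34, 55.6 ± 12.7 and 45.7 ± 5.75 FPKM at 0, 4 and 12 h. In MT it was 127 ± 48.1, 50.5 ± 6.85 and 55.4 ± 6.69 FPKM. The sum was therefore of similar size in 5 of the 6 groups, and the MT libraries at 0 h, at 173, 77.0 and 131 FPKM, were above every other library. Shares and sums at 0 h include GABA-TP3 and are descriptions.

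**Figure D2:**
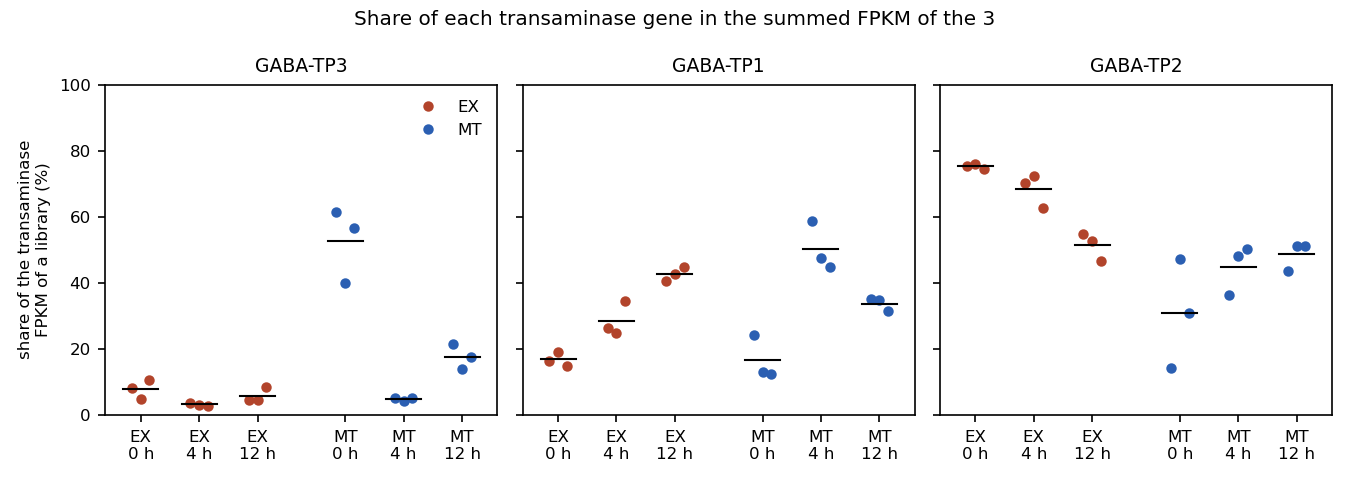
Share of each transaminase gene, in percent, in the summed transaminase FPKM of a library, with EX left of MT, 1 point a library and a bar at the group mean (n = 3). GABA-TP3 holds 39.9 to 61.4% in MT at 0 h and 2.83 to 10.6% in EX over all times, and GABA-TP1 holds 40.6 to 44.9% in EX at 12 h.

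GAD2 (gene ID 100147722; chromosome 11, 4848576 to 4855301, minus strand) was by far the most abundant of the 6 genes, with a mean of 542 FPKM over all libraries, rank 157 of 17870. Glutamate decarboxylase catalyses the step that commits glutamate to GABA, and the plant enzymes are known to be activated by calcium-bound calmodulin. In EX, GAD2 measured 319.9, 479.7 and 187 FPKM at 0 h, 568, 714 and 628 FPKM at 4 h and 654, 656 and 829 FPKM at 12 h. Every library at 4 and 12 h was above every library at 0 h. GAD2 rose to 637 ± 73.5 FPKM at 4 h, against 329 ± 147 FPKM at 0 h in EX (SD, n = 3 each), with a log2 difference of 1.05 (SE 0.26, 95% interval 0.48 to 1.61, limma adjusted p = 0.0174). At 12 h the EX mean was 713 ± 101 FPKM, a log2 difference from 0 h of 1.21 (SE 0.26, 95% interval 0.64 to 1.77, limma adjusted p = 0.00590). The 4 h call was lost without any of 4 of the 6 libraries, namely EX at 0 h library 1 or 3 and EX at 4 h library 2 or 3 (limma adjusted p = 0.0506 to 0.0764), whereas the 12 h call held in all 6 such fits. A fit on the compared groups alone ended both calls (limma adjusted p = 0.0860 at 4 h and 0.0532 at 12 h).

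In MT, GAD2 measured 471, 297 and 379.9 FPKM at 0 h, 670.4, 713 and 551 FPKM at 4 h and 544, 615 and 488 FPKM at 12 h. Here too both later times lay above 0 h in every library. The log2 differences from 0 h were 0.77 at 4 h (95% interval 0.20 to 1.33, limma adjusted p = 0.0654) and 0.54 at 12 h (95% interval -0.03 to 1.10, limma adjusted p = 0.161), and neither passed. The difference between the lines in these steps, EX minus MT, was 0.28 at 4 h (95% interval -0.52 to 1.08, limma adjusted p = 0.947) and 0.67 at 12 h (95% interval -0.13 to 1.47, limma adjusted p = 0.372). GAD2 was thus called in EX and not in MT, but its change was not shown to differ between them. Directly compared at 12 h, EX was higher in every library, with a log2 difference of 0.37 (95% interval -0.19 to 0.94) and a limma adjusted p of 1. At 4 h the means were 637 ± 73.5 FPKM in EX and 645 ± 84.0 FPKM in MT.

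GAD3 (gene ID 100147723; chromosome 1, 13024 to 15024, plus strand) was the least abundant member, with a mean of 4.31 FPKM over all libraries. Its libraries held an estimated 27 to 173 fragments each, the lowest counts of the 6 genes. In EX it measured 3.35, 5.12 and 6.29 FPKM at 0 h, 3.79, 3.78 and 3.68 FPKM at 4 h and 5.74, 2.44 and 3.14 FPKM at 12 h. In MT it measured 1.11, 6.86 and 2.71 FPKM at 0 h, 5.03, 3.49 and 6.55 FPKM at 4 h and 5.57, 4.79 and 4.20 FPKM at 12 h. All neighbouring groups overlapped in the order of its means, and no comparison passed. Between the lines the log2 difference was 0.55 at 0 h (95% interval -0.24 to 1.34), -0.31 at 4 h (-1.10 to 0.48) and -0.35 at 12 h (-1.14 to 0.44). The 0 h value moved either way with the library left out. Without library 2 of MT at 0 h it was 1.05 (limma adjusted p = 0.0313, in the fit that called 19.0% of all genes), and without library 1 of MT at 0 h it was 0.10.

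SSADH (gene ID 100147726; chromosome 9, 70143174 to 70145759, minus strand), the last enzyme of the route, varied least. Its spread over all 18 libraries ranked 17492 of 17870 tested genes, and its highest library was 1.35-fold above its lowest. In EX it measured 34.9, 31.3 and 31.1 FPKM at 0 h, 37.9, 34.5 and 33.3 FPKM at 4 h and 33.3, 30.1 and 33.8 FPKM at 12 h. In MT it measured 36.4, 36.1 and 39.2 FPKM at 0 h, 33.5, 29.1 and 31.0 FPKM at 4 h and 39.3, 32.3 and 30.0 FPKM at 12 h. At 0 h the lines did not overlap, with a mean of 32.4 ± 2.17 FPKM in EX and 37.2 ± 1.72 FPKM in MT. That log2 difference was -0.19 (95% interval -0.43 to 0.04, limma adjusted p = 0.302) and did not pass. In MT the 4 h libraries lay below those at 0 h, with a log2 difference of -0.25 (95% interval -0.49 to -0.01, limma adjusted p = 0.157). In EX the 12 h mean of 32.4 FPKM differed from the 0 h mean by less than 0.01 on the log2 scale, with a 95% interval of -0.24 to 0.24.

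The first and the second step were compared at transcript level by a ratio, the summed FPKM of GAD2 and GAD3 over that of the transaminases. In EX it was 6.44 ± 2.02 at 0 h, 11.7 ± 1.37 at 4 h and 16.0 ± 4.00 at 12 h. In MT it was 3.196 ± 0.659 at 0 h, 12.9 ± 1.22 at 4 h and 10.04 ± 1.08 at 12 h. At 0 h every EX library, at 4.26 to 8.24, was above every MT library, at 2.73 to 3.95, and at 12 h the EX libraries, at 12.7 to 20.4, were again above the MT libraries, at 8.90 to 11.04. At 4 h the lines overlapped. GABA-TP3 makes up 39.9 to 61.4% of the denominator in MT at 0 h, so the 0 h gap restates the values that chose it. Over GABA-TP1 and GABA-TP2 alone, a ratio added after the values had been seen, the lines overlapped at 0 h, with 7.45, 8.67 and 4.77 in EX and 7.06, 6.57 and 6.71 in MT. At 12 h they did not, with 13.2 to 22.3 in EX and 11.3 to 12.8 in MT. The ratio leaves out the decarboxylase genes outside the naming rule, and it is one of transcript levels, not of enzyme activity. Its numerator is nearly all GAD2. GABA-TP2, which also carries the name GAME12, made up 30.8 to 75.3% of the transaminase sum by group mean.

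Counted over the members with a test, none was called between the lines by limma with Benjamini-Hochberg adjusted p under 0.05. GABA-TP3 at 0 h, which that difference chose, is not in the count. At 0 h, 0 of the 5 members other than GABA-TP3 were called in EX against MT, where 3.17% of all 17870 genes were called, and 1 of 5 (GABA-TP1) had an unadjusted p under 0.05. At 4 h, 0 of 6 were called against 0.297% of all genes, with 1 of 6 (GABA-TP2) at an unadjusted p under 0.05. At 12 h, 0 of 6 were called against 0.134% of all genes, with 1 of 6 (GABA-TP3) at an unadjusted p under 0.05. Leaving out 1 library moved these shares over a range of 0.503 to 19.0% (0 h), 0.0727 to 2.84% (4 h) or 0.0504 to 0.0951% (12 h). The highest shares at 0 and 4 h came without library 2 of MT at that time. With calls this rare in the whole table, a count of 0 is not a result about these genes.

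**Figure D3:**
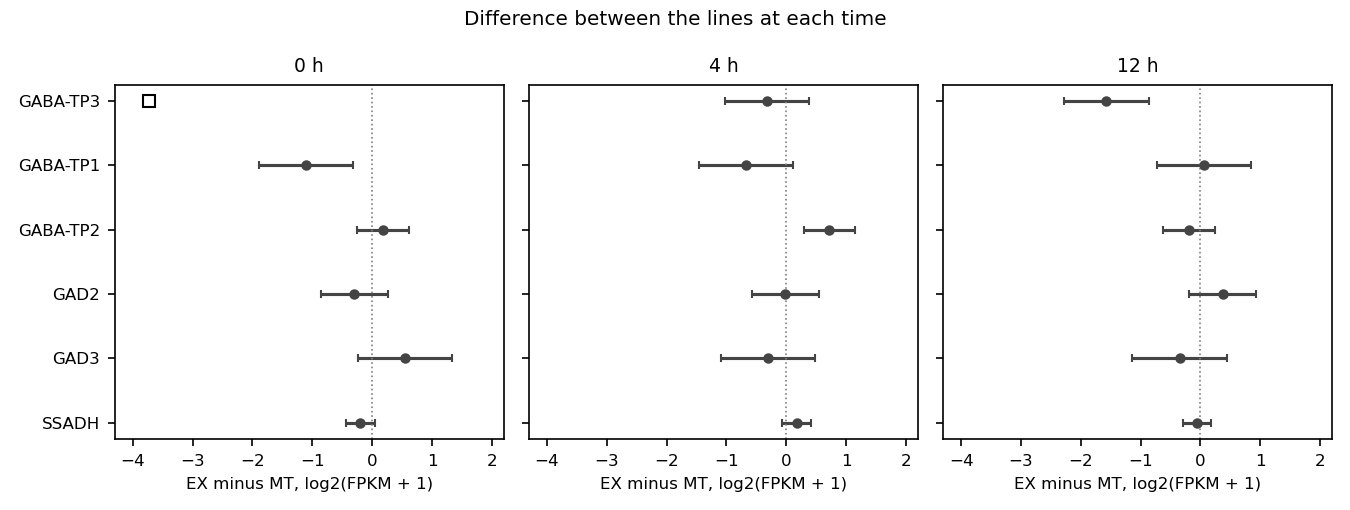
Difference of EX minus MT in log2(FPKM + 1) for each gene at 0, 4 and 12 h, with 95% intervals of the fit. The open square is GABA-TP3 at 0 h, drawn without an interval because this difference chose the gene, and at 12 h its interval, -2.28 to -0.87, lies farthest from 0.

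Over time, more members were called. In EX at 12 h against 0 h, 3 of 5 members were called, GAD2 and GABA-TP1 higher and GABA-TP2 lower, where 16.6% of all genes were called. In EX at 4 h against 0 h, 1 of 5 was called (GAD2, higher) against 11.3% of all genes, and at 12 h against 4 h 0 of 6 against 0.201%, with 1 of 6 (GABA-TP2) at an unadjusted limma p under 0.05. In MT, 0 of 5 were called at 4 h against 0 h (14.2% of all genes), with 3 of 5 (GABA-TP2, GAD2 and SSADH) at an unadjusted limma p under 0.05. At 12 h against 0 h in MT, 0 of 5 were called (21.2% of all genes), with 0 of 5 at an unadjusted limma p under 0.05. At 12 h against 4 h in MT, GABA-TP3 was the 1 of 6 called, against 0.554% of all genes. The comparisons with 0 h within a line share their 0 h libraries, so that 4 h and 12 h are not separate evidence.

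The tests of whether the lines changed differently called 0 of 5 members for 4 h against 0 h (0.101% of all genes, 1 of 5, SSADH, at an unadjusted limma p under 0.05). They called 0 of 5 for 12 h against 0 h (0.0224% of all genes, 1 of 5, GABA-TP1, at an unadjusted limma p under 0.05) and 0 of 6 for 12 h against 4 h (0.0392% of all genes, 2 of 6, GABA-TP2 and GABA-TP3, at an unadjusted limma p under 0.05).

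In the authors' deposited table the GABA-TP3 ratio of EX to MT was -4.20 at 0 h, -0.44 at 4 h and -1.94 at 12 h on the log2 scale. In that comparison the authors' deposited table gives a q under 0.05 at 0 h to all 5 members other than GABA-TP3, which that difference chose. It gives one to 6 of 6 members at 4 h and 4 of 6 at 12 h. It gives such a q to 70.4% of all genes with a q at 0 h, 63.6% at 4 h and 46.2% at 12 h in the authors' deposited table, so that the members' share there is to be read against a high background.

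GABA-TP3 and GABA-TP2 lie close together on chromosome 12, with 29335 bases between them and 1 gene in that interval, LOC101261488, which the reference table names GAME4. GAME4 is known in tomato as a cytochrome P450 of steroidal glycoalkaloid synthesis. It measured 6.39 FPKM in EX at 0 h, against 7.88 FPKM in MT at 0 h, and its log2 difference was -0.23 (95% interval -0.85 to 0.39, limma adjusted p = 0.662). On the other side of GABA-TP3, 168 bases away and on the opposite strand, LOC101261197 measured 16.3 FPKM in EX at 0 h, against 18.8 FPKM in MT at 0 h (log2 -0.13, 95% interval -0.68 to 0.41, limma adjusted p = 0.783). Of the 10 genes nearest to GABA-TP3, 5 on each side, 8 were high enough to test. Only LOC101262284, the farthest on the GABA-TP2 side, was called between the lines at 0 h, where 3.17% of all genes were called. It measured 10.2, 10.6 and 8.96 FPKM in EX, against 14.3, 14.6 and 14.0 FPKM in MT (log2 -0.49, SE 0.10, limma adjusted p = 0.0252). Its difference was -0.29 at 4 h and -0.01 at 12 h, and the 0 h call was lost without library 1 or 3 of EX or library 1 or 3 of MT at 0 h (limma adjusted p = 0.0690 to 0.126). It was also lost without both outlying MT libraries (0.0536), under median-of-ratios scaling (0.0667) and in a fit on the compared groups alone (limma adjusted p = 0.342).

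**Figure D4:**
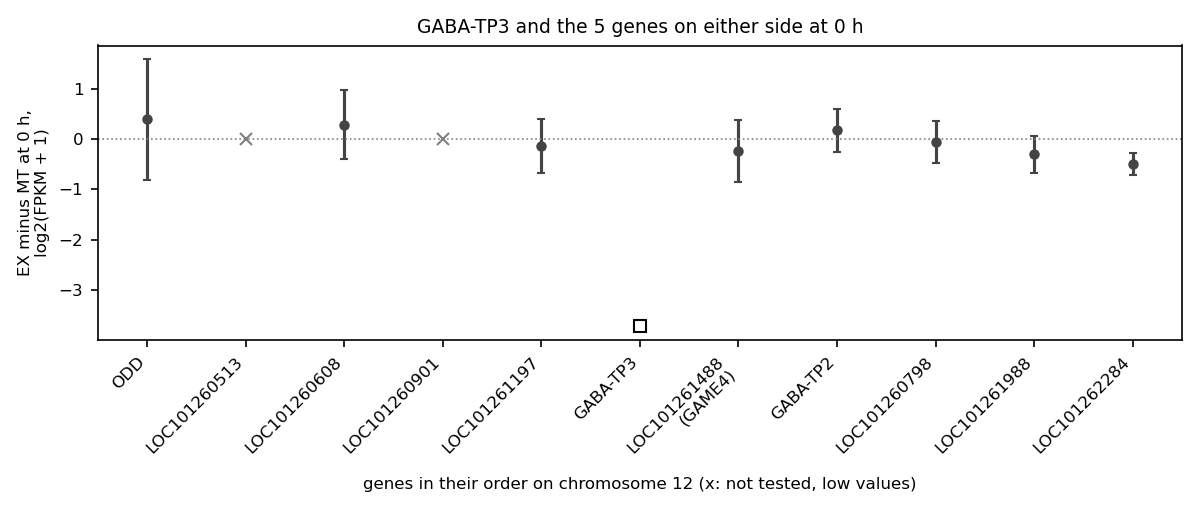
Difference of EX minus MT at 0 h in log2(FPKM + 1) for GABA-TP3 and the 5 genes on either side, in chromosome order, with 95% intervals; crosses mark genes too low to test and the open square marks GABA-TP3, which this difference chose. The tested neighbours lie between -0.49 and 0.39, against -3.73 for GABA-TP3.

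The 5 tested genes most like GABA-TP3, by Pearson correlation of log2(FPKM + 1) over the 18 libraries, carry only locus names in the reference table. The closest was LOC101250115 on chromosome 5 (4521367 to 4525292), with r = 0.974. It was at 0.013 FPKM in EX at 0 h and 0 at both later times in EX, against 12.0, 0.027 and 2.11 FPKM in MT at 0, 4 and 12 h. LOC101257767, also on chromosome 5 (4987384 to 4990794, r = 0.960), was expressed in both lines, with means of 25.9, 19.7 and 28.4 FPKM in EX and 69.1, 25.3 and 37.6 FPKM in MT at the same times. LOC101252754 (r = 0.946) and LOC101259217 (r = 0.941) lie close together near the start of chromosome 12, at 95787 to 104177 and 91298 to 95185. LOC101254912 on chromosome 7 (3440386 to 3447233, r = 0.942) had means of 0.067, 0.020 and 0.097 FPKM in EX and 4.11, 0.130 and 1.72 FPKM in MT. Over the 12 libraries at 4 and 12 h alone, r with GABA-TP3 was 0.963 for LOC101250115, 0.886 for LOC101257767, 0.759 for LOC101252754, 0.944 for LOC101254912 and 0.787 for LOC101259217. These correlations describe libraries that fall into the same 6 groups, and the MT libraries at 0 h weigh on them. The 5 genes were picked over libraries that include these 12, so the second set of r values is not separate support. Within the 12, the means of LOC101250115 and LOC101254912 were near 0 outside MT at 12 h.

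The other transaminases had different company. GABA-TP1 was most like LOC101261044 (r = 0.949), LOC101248325 (r = 0.936) and LOC101257732 (r = 0.919), and GABA-TP2 was most like LOC101248194 (r = 0.778), LOC101255814 (r = 0.778) and LOC101268463 (r = 0.755). Among the members, GABA-TP3 had r = 0.188 with GABA-TP1 and 0.102 with GABA-TP2 over the 18 libraries. GABA-TP1 had r = 0.666 with GAD2 and -0.537 with GABA-TP2. The r values with GABA-TP3 include the 0 h libraries that chose it. Whether the 3 transaminase genes followed different courses was not tested.

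Outside the naming rule, the reference table gives glutamate decarboxylase names to further genes. LOC544313, with the synonym LeGAD1, had means of 58.0 ± 21.4, 57.5 ± 2.89 and 58.0 ± 0.251 FPKM in EX and 51.5 ± 14.3, 38.3 ± 6.43 and 44.98 ± 5.70 FPKM in MT at 0, 4 and 12 h (SD, n = 3 each). At 4 h every EX library was above every MT library, with a log2 difference of 0.59 (95% interval 0.11 to 1.06, limma adjusted p = 0.282) that did not pass. LOC101251185, with the synonym SlGAD4, averaged 0.007 FPKM and was too low to test. GAD2 was therefore the highest of the measured decarboxylase genes in every group.

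Of the genes around the shunt, 18 beyond the 6 members were matched by name and 16 were high enough to test. They cover decarboxylases, GABA transport, entry into the citrate cycle, glutamate and glutamine, polyamines and proline. In EX against MT, 1 of 16 was called at 0 h (3.17% of all genes), 0 at 4 h (0.297%) and 0 at 12 h (0.134%). The lists were chosen with earlier results of these data known, so the p-values of that 1 gene are descriptions and not separate support. The gene was LEAS1, an asparagine synthetase, which uses glutamine as amino donor. It measured 21.5, 23.6 and 9.15 FPKM in EX at 0 h, against 129, 93.7 and 88.3 FPKM in MT at 0 h (log2 -2.54, SE 0.42, limma adjusted p = 0.00682, and 0.110 in a fit on these groups alone). In MT it fell to 19.8 ± 5.44 FPKM at 4 h, against 104 ± 22.0 FPKM at 0 h (log2 -2.34, SE 0.42, limma adjusted p = 0.00161), and it was 32.4 ± 12.1 FPKM at 12 h (log2 -1.71 from 0 h, limma adjusted p = 0.0106, and 0.0577 without library 2 of MT at 12 h). The median log2 difference of the 16 genes at 0 h was 0.07, against -0.10 over all tested genes.

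The polyamine route feeds GABA from putrescine, and in MT 3 of its 5 genes were called higher at 12 h than at 0 h. In that comparison 21.2% of all 17870 genes were called in either direction, 1429 of them higher and 2357 lower. In a fit on the compared groups alone 1 of the 5, ADC, was called (limma adjusted p = 0.0926 for adc1 and 0.0890 for ODC). Arginine decarboxylase makes the putrescine precursor agmatine. ADC averaged 180.3 ± 20.5 FPKM at 12 h in MT, against 48.7 ± 23.5 FPKM at 0 h (log2 1.97, SE 0.40, limma adjusted p = 0.00339), and it was called at 4 h too (log2 1.39, limma adjusted p = 0.0319). The 4 h call was lost without library 1 or 3 of MT at either time (limma adjusted p = 0.0727 to 0.136) without both outlying MT libraries (0.167) and in a fit on the compared groups alone (0.0920). The second such gene, adc1, averaged 288 ± 98.9 FPKM at 12 h in MT, against 102 ± 55.8 FPKM at 0 h (log2 1.64, limma adjusted p = 0.0159), and reads shared between it and ADC could make both values uncertain. ODC, for ornithine decarboxylase, which makes putrescine directly, averaged 25.1 ± 11.2 FPKM at 12 h in MT, against 11.1 ± 2.93 FPKM at 0 h (log2 1.05, limma adjusted p = 0.0232). The adc1 call was lost without library 3 of MT at 0 h or library 1 of MT at 12 h, and the ODC call without library 1 or 3 of MT at 0 h or library 1 of MT at 12 h (limma adjusted p = 0.0691 to 0.119). Without both outlying MT libraries the ODC call was lost as well (limma adjusted p = 0.0884). In EX, 0 of these 5 genes were called at 12 h against 0 h by limma, against 16.6% of all genes. The difference between the lines over 12 h called 0 of them, against 0.0224% of all genes. The median log2 difference of the 5 at 12 h against 0 h was 0.47 in EX, against 0.04 over all genes, and 1.05 in MT, against -0.06 over all genes. The aminoaldehyde dehydrogenase gene amadh2, whose enzyme class makes GABA from aminobutanal, stayed at means of 71.6 to 74.9 FPKM in EX and 75.3 to 79.9 FPKM in MT and was called nowhere.

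In the citrate cycle list, ICDH1, an isocitrate dehydrogenase gene, averaged 75.9 ± 8.04 FPKM at 12 h in EX, against 49.6 ± 10.2 FPKM at 0 h (log2 0.62, SE 0.19, limma adjusted p = 0.0328). That call was lost without library 1 or 3 of EX at either time (limma adjusted p = 0.0958 to 0.148) and in a fit on the compared groups alone (0.0565). SCOA was called nowhere. The 2 transport genes, LOC101254578 (ALMT4) and LOC101246702 (ALMT5), of the aluminium-activated malate transporter family, were called nowhere, with means between 8.48 and 17.1 FPKM. GS2, the chloroplast glutamine synthetase, was the highest gene of the glutamate list, with means of 864 ± 125, 777 ± 96.2 and 615 ± 31.9 FPKM in EX and 564 ± 238, 513 ± 102 and 678 ± 79.2 FPKM in MT, and was called nowhere. PRO2, for proline synthesis, had means between 26.2 and 30.9 FPKM and was called nowhere.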

How the data were processed

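Per the file headers, the deposited table gives FPKM in each library for 23348 genes. It also carries ratios on the log2 scale that the authors computed between groups, with the authors' p-values and q-values. The sources used here do not give how those were made. Tools listed in the submitters' processing notes, without roles or a genome build, are RSEM 1.2.12, DESeq2 1.4.5, Bowtie2 2.2.5 and HISAT2 2.0.4. Coordinates are those of the deposited table, and the reference table of assembly SLM_r2.1, which held 21649 of the gene identifiers, gave names and chromosome numbers only. Per the labels, libraries were made from leaf RNA, and each was grouped by its title and labels.

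Here log2(FPKM + 1) was fitted with limma 3.58.1 in R 4.3.3, with a mean-variance trend and 6 group means over all 18 libraries (residual degrees of freedom 12, prior 3.18). A gene was tested where some group averaged 1 FPKM or more, which left 17870 genes, all 6 members among them. Tests are two-sided, p-values were Benjamini-Hochberg adjusted over all tested genes within a comparison, with calls made at adjusted p under 0.05. A fold change on this scale understates the change of low genes. Fragments per library, 16500000 to 18600000, follow from the spacing of low FPKM values, of which 91.7 to 95.8% lay within 0.1 of a whole fragment. The fit was also run on simulated data in which a gene had the same normal spread in every group. For EX against MT at 4 h it recovered 74% of 100 genes changed by 1 on the log2 scale. It recovered 97% of 100 genes changed by 2, and there were 7 false calls. The simulation held no outlying libraries, so these shares need not hold for the libraries here.

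The members and the gene lists were chosen with earlier results of these data known. The genes named are the members, the 5 tested genes most correlated with GABA-TP3 and up to 3 for GABA-TP1 and GABA-TP2, the 5 genes on either side of GABA-TP3, and genes of the pathway lists that were called or high. Lists for reduction of succinic semialdehyde and for alanine and glyoxylate matched 0 genes. The marker lists for fruit, pollen, root and meristem gave sums of 15.7 to 89.9, 0.08 to 2.50, 47.1 to 180.1 and 72.9 to 176 FPKM. The genes yfe37 and LOC544002, which share a decarboxylase name in the reference table with other genes, were left out of the lists after their names were read. Same-numbered libraries deviated together in all 3 numbers only in EX against MT at 12 h (correlations of 0.568, 0.231 and 0.405), which is where the numbers may pair the libraries. The alternatives tried were other pseudocounts, filters, scaling, moderation, a fit on the compared groups alone, the replicate block and leaving out libraries.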

Additional observations from a re-analysis of the deposited data

Results flagged for a closer look

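The mean of GABA-TP2 fell in EX and rose in MT between 4 and 12 h. Its log2 difference of 12 h from 4 h was -0.66 in EX (95% interval -1.08 to -0.23, limma adjusted p = 0.387). In MT it was 0.25 (95% interval -0.18 to 0.68, limma adjusted p = 0.636). In each line the libraries of the 2 times did not overlap, but that was the rule that flagged the gene and is not a test. The gap in MT was narrow, with 24.3 FPKM in the highest 4 h library and 24.7 FPKM in the lowest 12 h library. The difference between the lines, EX minus MT, was -0.91 (SE 0.29, 95% interval -1.51 to -0.30). It did not pass adjustment over all genes (limma adjusted p = 0.505), and this test was added after the values had been seen.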

How the results depend on the processing

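Leaving out 1 library kept 10 of 30 repeats of the 5 member calls, and the other alternatives kept 42 of 50. The GABA-TP3 call (12 h against 4 h in MT) held in 0 of 6 and 8 of 10, and the GABA-TP1 call (12 h against 0 h in EX) in 1 of 6 and 6 of 10. With the replicate number as a block, 1 member (GABA-TP2) was called at 4 h against 0 h in MT where 0 had been. At 12 h against 4 h in MT, 0 members were called with no filter (GABA-TP3, limma adjusted p = 0.0567) and 0 in a fit on the compared groups alone (0.106). At 4 h against 0 h in EX, 0 were called with the compared groups alone (GAD2, 0.0860) and 2 without both outlying MT libraries (library 1 at 0 h and at 4 h). GAD2 at 12 h against 0 h in EX was lost with the compared groups alone (0.0532), and GABA-TP1 there with no filter (0.0686), robust moderation (0.0510) or no trend (0.0512); the cause was not tested.

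Leaving out 1 library at a time gave 0 to 2 members called in EX against MT at 0 h, 0 to 3 at 4 h against 0 h in MT, 0 to 1 at 12 h against 0 h in MT, 0 to 0 at 12 h against 4 h in MT, 0 to 1 at 4 h against 0 h in EX, 1 to 2 at 12 h against 0 h in EX and 0 to 1 in the difference between the lines over 12 h. Over all genes those fits called 0.503 to 19.0% in EX against MT at 0 h. In MT they called 10.2 to 17.4% at 4 h and 12.8 to 28.7% at 12 h against 0 h. At 12 h against 4 h in MT they called 0.213 to 1.19%. In EX they called 6.61 to 11.1% at 4 h and 9.74 to 17.8% at 12 h against 0 h. For the difference between the lines over 12 h the share was 0.0223 to 8.46%. Without library 2 of MT at 0 h, GAD3 was called at 4 h (log2 1.07) and 12 h (1.06) against 0 h in MT, and GABA-TP1 in the difference between the lines over 12 h (1.60). That fit called 17.4, 28.7 and 8.46% of all genes in these 3 comparisons, against 14.2, 21.2 and 0.0224% with every library. Without library 1 of MT at 0 h, GABA-TP1 (0.92), GABA-TP2 (-0.76) and GAD2 (0.93) were called at 4 h against 0 h in MT. There 12.3% of all genes were called, against 14.2% with every library.

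Small differences changed sign. Without that pair of libraries, GABA-TP2 in EX against MT at 0 h was -0.025, GAD2 at 4 h was 0.017, GABA-TP1 at 12 h against 0 h in MT was 0.505 and GAD3 at 12 h against 4 h in MT was 0.0011. Under median-of-ratios scaling GAD2 at 4 h was 0.038, GABA-TP1 at 12 h against 0 h in MT was 0.034 and GAD3 at 12 h against 4 h in MT was 0.031. Leaving out 1 library, EX against MT ranged from -0.025 to 0.322 for GABA-TP2 at 0 h, -0.620 to 0.059 for GAD2 at 0 h, -0.125 to 0.063 for GAD2 at 4 h, -0.075 to 0.165 for GABA-TP1 at 12 h and -0.135 to 0.055 for SSADH at 12 h. In MT, GABA-TP1 ranged from -0.065 to 0.918 at 4 h and -0.478 to 0.505 at 12 h against 0 h, and at 12 h against 4 h GAD3 ranged from -0.212 to 0.163 and SSADH from -0.0010 to 0.189. In EX, GABA-TP2 at 4 h against 0 h ranged from -0.220 to 0.125, SSADH at 12 h against 0 h from -0.031 to 0.053 and GAD3 at 12 h against 4 h from -0.332 to 0.153. The difference between the lines ranged from -0.116 to 0.868 for GABA-TP1 and -0.075 to 0.604 for GAD2 over 4 h, and from -0.316 to 0.169 for GAD3 between 4 and 12 h.

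Counts over all genes moved too. Leaving out 1 library gave 90 to 3397 in EX against MT at 0 h (567 with every library), 13 to 509 at 4 h (53) and 4 to 1516 for the difference between the lines over 12 h (4), with the highest without library 2 of MT at 0 h, or at 4 h for the 4 h comparison. With the compared groups alone, calls in EX against MT were 23 at 0 h and 0 at 4 h, against 567 and 53; in MT they were 507 at 4 h and 1488 at 12 h against 0 h and 1 at 12 h against 4 h, against 2531, 3786 and 99; in EX at 12 h against 4 h they were 63, against 36. Without that pair of libraries, EX against MT had 192 calls at 0 h and 17 at 4 h, 12 h against 4 h had 62 calls in MT and 56 in EX. The block gave 371 and 35 calls in EX against MT at 0 and 4 h, median-of-ratios scaling 361 at 0 h, and the 5 FPKM filter 7 at 12 h, against 24. The replicate block changed no call of a member other than GABA-TP2 and GABA-TP1 above. GAD3 had the lowest depth of the members, 27 to 173 fragments a library.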
